A study of Mus musculus with 18 samples.

Results

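The genes described here were 49 members of the TGF-beta, BMP and activin pathway, chosen by name from the 55487 genes counted in each library. All 49 were found in the files. They comprised 16 ligands, 4 genes of latent TGF-beta binding and matrix, 12 receptors, 6 secreted antagonists and follistatin relatives, 8 SMADs and 3 ID genes. Total RNA was sequenced from subcutaneous white adipose tissue (sWAT) of 12-week-old mice, 4 Ctrl and 4 Csn8AKO, and from brown adipose tissue (BAT) of 4-week-old mice, 5 Ctrl and 5 Csn8AKO. All were male mice on chow that had fasted for 4 h, with 1 mouse per library. Ctrl mice were Csn8 f/f littermates without the deletion, so that both genotypes carried the floxed allele. In Csn8AKO mice, Cre driven by the adiponectin promoter removed exons 4 to 6 of Csn8, which encodes a subunit of the COP9 signalosome, in adipocytes. Other cells of the depots keep the gene, and the libraries hold RNA of the whole depot. In such bulk RNA, fewer cells of a type and less RNA per cell cannot be told apart.

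TGF-beta family ligands are secreted dimers that bind a type II receptor kinase, which phosphorylates a type I receptor kinase. TGF-betas and activins signal mainly through SMAD2 and SMAD3, and BMPs through SMAD1, SMAD5 and SMAD9, each joined by SMAD4 in the nucleus. SMAD6 and SMAD7 inhibit the pathway. TGF-beta is known in adipose tissue for matrix production and for restraining adipogenesis, and several BMPs are known to promote the formation of white or brown adipocytes.

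Between 15835721 and 66719937 reads were counted per library, and neither the totals (exact permutation p = 0.943 in sWAT and 0.103 in BAT, two-sided) nor the share of ribosomal RNA counts (p = 0.343 and 0.635) passed a test between genotypes. Single libraries were still unbalanced. In sWAT the ribosomal share was 1.80 to 19.8% in Ctrl mice. It was 31.8 and 47.8% in Csn8AKO mice 3 and 4, and 3.96 and 4.83% in Csn8AKO mice 1 and 2. In BAT, Csn8AKO mice 2, 3 and 5 had 30099221, 27744949 and 26658593 reads, below the lowest Ctrl total of 44065520. Reads summed over each BAT genotype, where given below, thus come from unequal totals. The summed level of 12 adipocyte markers was at least 8995 CPM (reads of a gene scaled to a common library total) in every library, and that of 10 brown adipocyte markers was 5527 to 11771 CPM in BAT. Cops8, the gene targeted, was 35.0 ± 0.911 CPM (SD, n = 4) in Ctrl and 32.2 ± 2.98 CPM in Csn8AKO sWAT, and 39.4 ± 3.22 CPM (n = 5) and 32.1 ± 3.56 CPM in BAT. Its count includes exons that were not deleted and all other cells of the depot, so it checks the genotype labels only weakly. In sWAT, Ctrl mouse 1 and Csn8AKO mouse 2 stood apart, with 14 lymphocyte markers summing to 479 and 881 CPM against 14.4 to 49.0 CPM in the other libraries. In BAT, Csn8AKO mice 1 and 5 had 126 and 229 CPM of 12 skeletal muscle markers against 1.85 to 4.40 CPM in the others.

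In BAT of Csn8AKO mice, TGF-beta family transcripts rose far more often than they fell. Of 46 members with enough counts to test, 17 were called higher (37.0%) and 4 lower (8.70%), where 16.0% of all 22345 genes tested were called higher and 15.8% lower. In either direction that was 45.7% of the members and 31.9% of all genes, and 32 of the 46 had a fitted fold change above 0, called or not, against 50.5% of all genes. With a filter of over 1 CPM, 13 members and 3342 of 15929 genes tested were called higher. The members were chosen with earlier results of these data known. A call here means an adjusted p under 0.05 in edgeR's quasi-likelihood test, with Benjamini-Hochberg adjustment over all genes tested in that tissue. The members called higher were 9 ligands (Tgfb1, Tgfb2, Tgfb3, Bmp3, Bmp7, Bmp8b, Inhba, Gdf10 and Gdf11), Ltbp1 and Tgfbi, the receptor Acvrl1, the secreted proteins Fstl1, Fstl3 and Chrdl1, and Smad7 and Smad9. Those called lower were Ltbp2, Acvr2b, Smad2 and Id2. The median log2 fold change of the tested members was 0.19, and that of all genes was 0.01. In the same BAT libraries, all 12 fibroblast and progenitor markers were called higher, with summed levels of 1133 to 1902 CPM in Ctrl and 2867 to 4906 CPM in Csn8AKO mice. So were 12 of 13 macrophage markers, which summed to 115 to 151 CPM in Ctrl and 302 to 379 CPM in Csn8AKO mice, and no marker of either list was without counts. Of the adipocyte markers, 1 was called higher and 3 lower. The part of these cell types in the changes of the members was not tested.

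**Figure D1:**
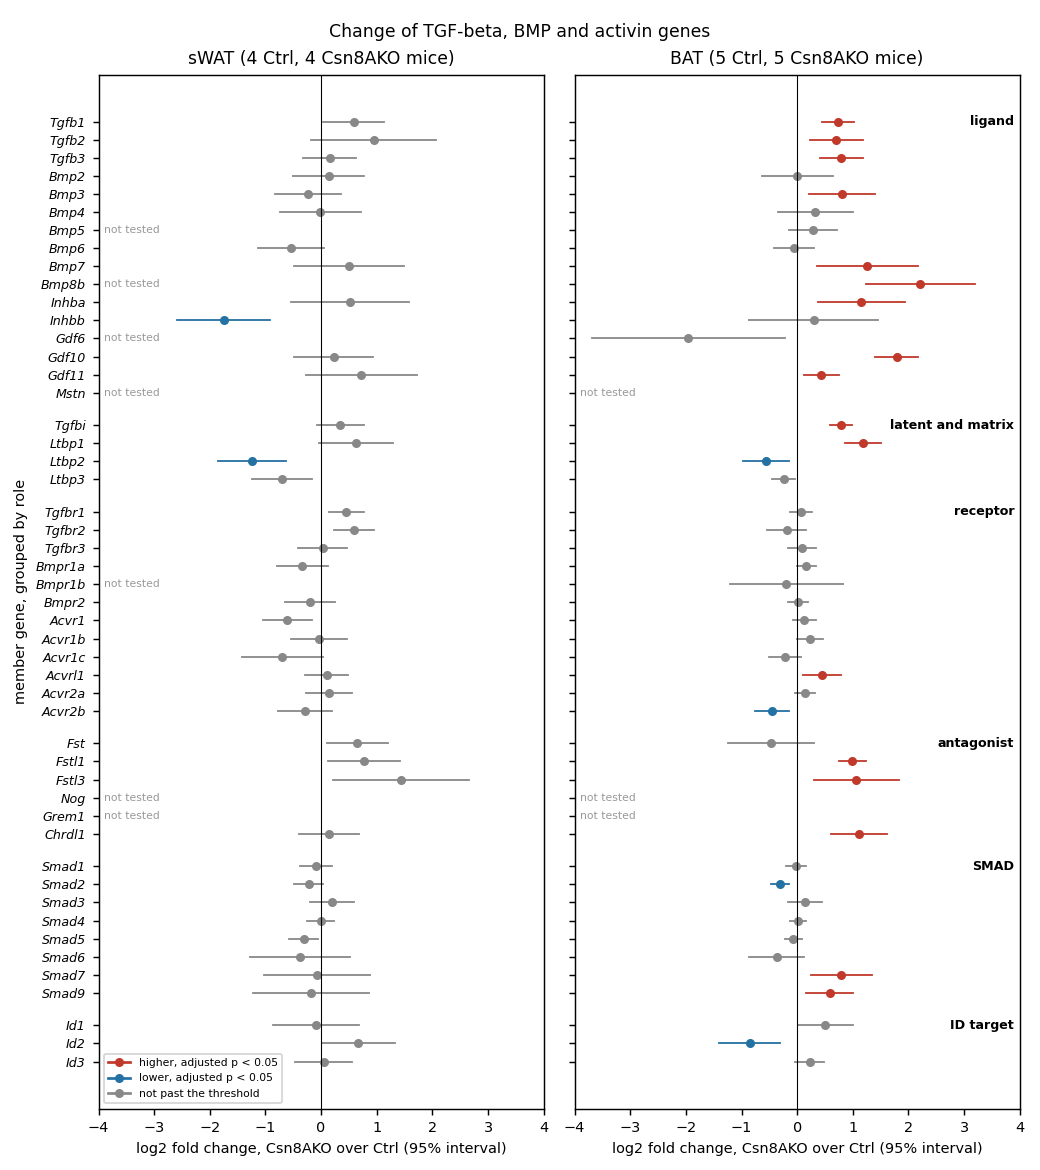
Log2 fold change of each member, Csn8AKO over Ctrl, in sWAT (left, 4 against 4 mice) and BAT (right, 5 against 5 mice), with unadjusted 95% intervals, grouped by role. Red and blue mark members called higher and lower, and in BAT most of the red points are ligands and secreted proteins while receptors lie near 0.

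In sWAT, few members were called. Of 42 tested, 0 were called higher and 2 were called lower, Inhbb and Ltbp2 (4.76%), where 2.30% of all 18843 genes were called higher, 3.00% lower and 5.31% in either direction. A fitted fold change above 0 was found for 22 of the 42, called or not, and for 53.3% of all genes. At an unadjusted p under 0.05 there were 12 members, of which 10 were not called. No count of all genes at that threshold is given here. With DESeq2, 2 members were called higher (Tgfbr1 and Tgfbr2), and with limma voom, 4 (Fstl1, Tgfb1, Tgfbr1 and Tgfbr2). Calls also rose over all 18843 genes, of which 434 were called higher with edgeR, 910 with DESeq2 and 1077 with limma voom. The median log2 fold change of the members was 0.03, the same as that of all genes. Without the pair of libraries rich in lymphocyte markers, 5 members were called higher (Fstl1, Ltbp1, Tgfb1, Tgfb2 and Tgfbr2) and 1 lower (Ltbp2). In that fit, 993 of all 18547 genes tested were called higher and 827 lower. Cell type markers also moved in this depot. Of 12 adipocyte markers, 5 were called lower, with summed levels of 23189 to 31988 CPM in Ctrl and 8995 to 20915 CPM in Csn8AKO mice, and 9 of 13 macrophage markers were called higher. Of 12 fibroblast and progenitor markers, 1 was called higher in sWAT, with sums of 10081 to 11315 CPM in Ctrl and 10678 to 18299 CPM in Csn8AKO mice. Mural cell markers summed to 777 to 1098 CPM in Ctrl and 473 to 754 CPM in Csn8AKO mice, and 2 of 8 were called lower. Brown adipocyte markers had 3 of 8 tested called lower, and endothelial markers 0 of 10 called. Whether these shifts had a part in the values of the members was not tested.

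Ltbp2 was the one member called in both tissues, and it was lower in both. Of the other members, 21 were tested and not called in either tissue. The groups of libraries did not overlap for 7 members higher in BAT (Tgfb1, Gdf10, Ltbp1, Tgfbi, Fstl1, Chrdl1 and Smad9) and for 1 lower (Smad2), a separation found for 10.1% and 10.9% of all genes tested there. In sWAT they did not overlap for 2 members higher (Tgfbr1 and Tgfbr2) and 3 lower (Inhbb, Ltbp2 and Smad5), against 5.80% and 8.23% of all genes.

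**Figure D2:**
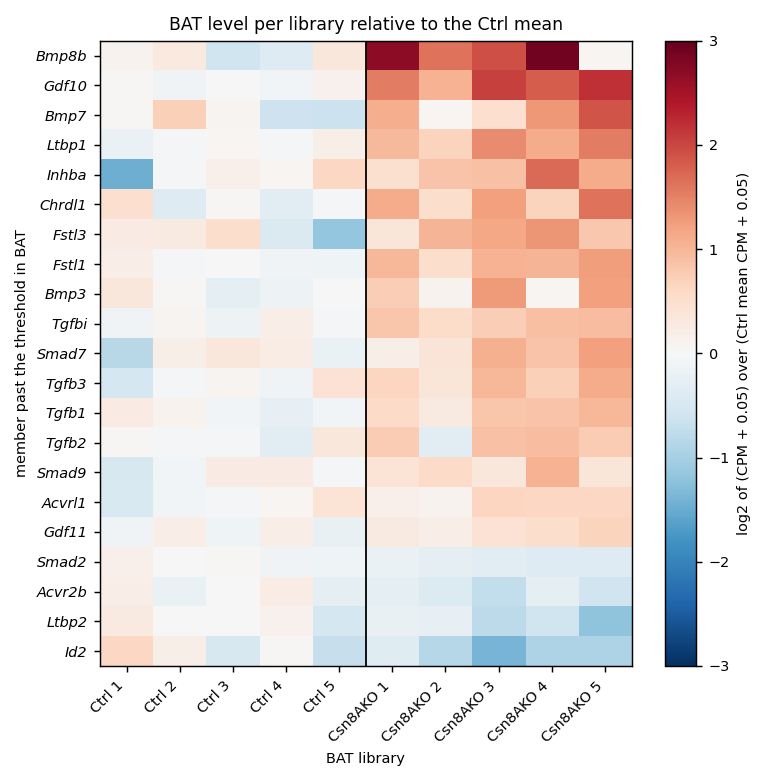
Level of the 21 members called in BAT in each of the 10 BAT libraries, as log2 of CPM + 0.05 relative to the Ctrl mean of the gene + 0.05 (color scale from -3 to 3, red above the Ctrl mean). Gdf10, Bmp8b and Ltbp1 are red in most Csn8AKO columns, and Bmp8b in Csn8AKO mouse 5 is near the Ctrl level.

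All 3 TGF-beta isoforms, the prototypes of the family, rose in BAT. Tgfb1 was at 30.4, 27.3, 24.0, 21.4 and 24.2 CPM in the Ctrl mice and at 37.7, 30.6, 45.6, 46.4 and 50.6 CPM in the Csn8AKO mice. Every Csn8AKO mouse was above every Ctrl mouse, although mouse 2 was only just above the highest of them, and the rise was 1.66-fold (log2 0.73, SE 0.13, adjusted p = 0.000826). Tgfb3 was at 3.28, 4.61, 5.02, 4.45 and 6.47 CPM in Ctrl and 7.52, 6.11, 9.55, 7.91 and 10.4 CPM in Csn8AKO mice. The groups overlapped through Csn8AKO mouse 2, and the rise was 1.74-fold (log2 0.79, SE 0.18, adjusted p = 0.00443). Both calls held in all 10 fits that left out 1 mouse. Tgfb2 was lower in level, at 1.65, 1.56, 1.55, 1.29 and 2.06 CPM in Ctrl and 2.78, 1.30, 3.02, 3.15 and 2.81 CPM in Csn8AKO mice. Csn8AKO mouse 2 lay at the bottom of the Ctrl range while the other 4 were above it, and the rise was 1.62-fold (log2 0.70, SE 0.22, adjusted p = 0.0273). This call was lost without Ctrl mouse 2, 3 or 4 or Csn8AKO mouse 3, 4 or 5, with an adjusted p of up to 0.0758 (without Csn8AKO mouse 4). In sWAT the isoforms had log2 fold changes of 0.59 (Tgfb1, adjusted p = 0.212), 0.94 (Tgfb2, 0.336) and 0.15 (Tgfb3, 0.745), and none was called.

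Gdf10, also known as BMP3B and close in sequence to BMP3, had the smallest adjusted p of the members in BAT. It was at 6.88, 6.23, 6.76, 6.29 and 7.39 CPM in the Ctrl mice and at 19.6, 13.8, 27.8, 23.8 and 30.8 CPM in the Csn8AKO mice. The Ctrl mice lay close together and all 5 Csn8AKO mice were well above them, a rise of 3.45-fold (log2 1.79, SE 0.18, adjusted p = 8.51e-06) that held in all 10 fits with 1 mouse left out and in all 11 other settings. In sWAT, where its level was higher, Gdf10 was at 32.9, 53.6, 55.5 and 61.7 CPM in Ctrl and 77.8, 29.9, 80.1 and 50.0 CPM in Csn8AKO mice. There Csn8AKO mice 1 and 3 were above the Ctrl range, mouse 2 was below it and mouse 4 within it. The log2 fold change was 0.22 (SE 0.31, adjusted p = 0.749). The lowest value of each genotype, in Ctrl mouse 1 and Csn8AKO mouse 2, came from the libraries rich in lymphocyte markers. Bmp3, a BMP that opposes other BMPs, was at 0.982, 0.796, 0.629, 0.683 and 0.757 CPM in Ctrl BAT and at 1.32, 0.828, 1.92, 0.807 and 1.87 CPM in Csn8AKO BAT. Only mice 1, 3 and 5 exceeded the Ctrl range (log2 0.80, SE 0.28, adjusted p = 0.0386), and the call was lost without Ctrl mouse 2, 3, 4 or 5 or Csn8AKO mouse 1, 3 or 5, with an adjusted p of up to 0.104 (without Csn8AKO mouse 3).

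The promoters of Gdf10 and Inhbb are shown because these ligands had the smallest adjusted p of the members, Gdf10 in BAT and Inhbb in sWAT. Each sequence is the 250 bases before the start of the gene in RefSeq (GRCm38.p6), read on the strand of the gene, at chr14:33923337-33923586 (plus strand) for Gdf10 and at chr1:119422249-119422498 (minus strand) for Inhbb. Capitals mark GTCT and its reverse complement AGAC, the core letters of the SMAD box bound by SMAD3 and SMAD4.
Gdf10: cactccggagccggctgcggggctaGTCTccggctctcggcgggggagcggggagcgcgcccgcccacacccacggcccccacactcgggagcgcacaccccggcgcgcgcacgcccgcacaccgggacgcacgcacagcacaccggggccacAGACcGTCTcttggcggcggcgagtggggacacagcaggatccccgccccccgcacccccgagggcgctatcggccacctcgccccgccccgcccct
Inhbb: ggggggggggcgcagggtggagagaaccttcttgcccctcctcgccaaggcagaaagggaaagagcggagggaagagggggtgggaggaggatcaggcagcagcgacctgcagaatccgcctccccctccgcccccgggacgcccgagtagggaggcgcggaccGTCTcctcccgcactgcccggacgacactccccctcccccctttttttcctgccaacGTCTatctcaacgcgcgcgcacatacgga
The Gdf10 window held 3 such matches and the Inhbb window 2, and the median over all promoters was also 2. At least 1 match was present in 83.0% of the 27025 promoters in the table and in 30 of the 35 member promoters it holds. The letters GGCGCC, which read the same on both strands and form a core bound by BMP SMADs, were in 7 of the 35 member promoters and in 9.54% of all promoters, and in neither sequence shown. These matches describe the letters and are not evidence of binding.

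Bmp8b, Bmp7 and Inhba were called higher in BAT at low levels. Bmp8b, which encodes a BMP released by brown fat and known to raise its thermogenesis, was at 1.01, 1.15, 0.597, 0.701 and 1.19 CPM in Ctrl BAT and at 6.28, 3.00, 3.71, 7.21 and 0.969 CPM in Csn8AKO BAT. Of the Csn8AKO mice, 1 to 4 were above all Ctrl mice and mouse 5 was within the Ctrl range (4.63-fold, log2 2.21, SE 0.45, adjusted p = 0.003). Its exons overlap those of Gm17244 and Ppie on the opposite strand, by up to 339 bases with 1 of them. The use of strand in counting is not given in the sources used here. If strand was ignored, reads within those bases matched more than 1 gene and would not have been counted. How far this affects its level was not tested. Tgfb2, Tgfb3 and Acvrl1 likewise share up to 124, 257 and 127 bases with any 1 gene on the opposite strand. Bmp8b also has a close paralog next to it, Bmp8a, and reads that align to both were not counted. Its call held in all 10 fits without 1 mouse. Bmp7, a BMP that promotes brown adipocyte formation, was at 0.233, 0.407, 0.242, 0.129 and 0.126 CPM in Ctrl and 0.540, 0.237, 0.344, 0.629 and 0.969 CPM in Csn8AKO BAT, or 62 and 123 reads in all. Mice 2 and 3 of the Csn8AKO group lay within the Ctrl range (log2 1.26, SE 0.42, adjusted p = 0.0342), and leaving out Ctrl mouse 1, 3, 4 or 5 or Csn8AKO mouse 1, 4 or 5 lost the call, with an adjusted p of up to 0.101 (without Csn8AKO mouse 5).

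Inhba encodes the beta A subunit of activin A. It was at 0.103, 0.356, 0.419, 0.387 and 0.595 CPM in Ctrl BAT and 0.540, 0.710, 0.722, 1.33 and 0.869 CPM in Csn8AKO BAT. The groups overlapped through Ctrl mouse 5 and Csn8AKO mouse 1 (log2 1.15, SE 0.37, adjusted p = 0.0268), and the call was lost without Ctrl mouse 2 or Csn8AKO mouse 4, with an adjusted p of up to 0.105. Gdf11, a close relative of myostatin, was at 3.02, 3.71, 2.95, 3.73 and 2.78 CPM in Ctrl BAT and 3.91, 3.71, 4.36, 4.72 and 5.21 CPM in Csn8AKO BAT. Of the Csn8AKO mice, 4 of 5 were above every Ctrl mouse (log2 0.44, SE 0.15, adjusted p = 0.0381), and without Ctrl mouse 1, 3 or 5 or Csn8AKO mouse 3, 4 or 5 the call was lost, with an adjusted p of up to 0.0952.

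Inhbb encodes the beta B subunit of activin B and is known to be expressed in white adipocytes. In sWAT it was at 38.0, 75.8, 26.7 and 29.1 CPM in the Ctrl mice and at 7.92, 11.7, 13.0 and 17.8 CPM in the Csn8AKO mice. Every Csn8AKO mouse was below every Ctrl mouse, and the mean was 3.37-fold lower (log2 -1.75, SE 0.37, adjusted p = 0.0314). The adjusted p was up to 0.098 without a mouse, and the call was lost without Ctrl mouse 4 or Csn8AKO mouse 1, 2 or 3. It was also lost without both libraries rich in lymphocyte markers, without a filter on low counts and with the replicate number as a block. In BAT, Inhbb was at 2.59, 1.66, 0.742, 0.480 and 0.451 CPM in Ctrl and 2.61, 1.42, 0.619, 0.889 and 1.54 CPM in Csn8AKO mice. These ranges overlapped almost entirely (log2 0.30, SE 0.53, adjusted p = 0.712), and the difference between the changes in the 2 tissues was not called either (log2 2.05, SE 0.72, adjusted p = 0.17).

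The ligands not called in either tissue included Bmp6 and Bmp4, which had the highest levels per length among them in Ctrl sWAT (4.28 and 1.97 CPM per kb). In Ctrl BAT, Bmp6 (12.8) was followed by Bmp5 (0.537) and Bmp2 (0.362), ahead of Bmp4 (0.219). Bmp6, known in the liver for iron control and present in adipocytes, was 16.7 ± 2.19 CPM (SD, n = 4) in Ctrl and 11.5 ± 4.59 CPM in Csn8AKO sWAT (log2 -0.54, SE 0.27, adjusted p = 0.299). In BAT it was 50.1 ± 6.49 CPM (n = 5) and 48.2 ± 12.1 CPM (log2 -0.06, 95% interval -0.42 to 0.31). Bmp4, which commits progenitors to the adipocyte lineage, had log2 fold changes of -0.01 in sWAT (95% interval -0.74 to 0.71) and 0.33 in BAT (-0.34 to 1.00). The BAT interval of Bmp6 lay below the smallest fitted rise among the called ligands (0.44, Gdf11), while both intervals of Bmp4 reached past it. Gdf6 in BAT had 83 reads in the 5 Ctrl libraries and 18 in the 5 Csn8AKO libraries, of which 3 had none, and was not called (log2 -1.95, SE 0.80, adjusted p = 0.081). Bmp2 and Bmp5 were not called in BAT, at log2 fold changes of 0.00 and 0.29. In sWAT, Bmp5, Bmp8b and Gdf6 were under the count filter, and Bmp2, Bmp3, Bmp7, Inhba and Gdf11 had log2 fold changes from -0.23 to 0.72 without a call.

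Mstn, the muscle ligand myostatin, was too low to test in either tissue. In sWAT it was at 0, 0, 2.43 and 0.312 CPM in Ctrl and at 0.278, 0, 0.827 and 1.05 CPM in Csn8AKO mice. Its highest values, in Ctrl mouse 3 and Csn8AKO mouse 4, were in the libraries with the highest sums of skeletal muscle markers, 2998 and 1808 CPM. In BAT, 2 reads were counted in Ctrl mouse 1 and none elsewhere, including the libraries with muscle markers.

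Of the 4 genes of latent TGF-beta binding and matrix, 2 rose and 1 fell in BAT, where 31.9% of all genes were called in either direction. Ltbp1, which binds latent TGF-beta and anchors it in the matrix, was at 7.63, 8.49, 9.18, 8.51 and 9.95 CPM in Ctrl and 17.4, 13.9, 23.5, 18.9 and 25.5 CPM in Csn8AKO mice. All Csn8AKO mice were above all Ctrl mice, a rise of 2.27-fold (log2 1.18, SE 0.15, adjusted p = 5.09e-05). Tgfbi, a matrix protein named for its induction by TGF-beta, was at 23.5, 26.7, 22.5, 28.7 and 24.4 CPM in Ctrl and 44.5, 37.1, 41.8, 46.9 and 47.8 CPM in Csn8AKO mice. The groups were again apart, with a rise of 1.74-fold (log2 0.80, SE 0.09, adjusted p = 2.56e-05). Both calls held in all 10 fits without 1 mouse and in all 11 other settings. In sWAT, Ltbp1 had a log2 fold change of 0.63 (SE 0.30, adjusted p = 0.271) and Tgfbi of 0.35 (SE 0.19, adjusted p = 0.35).

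Ltbp2 is a microfibril-associated relative of Ltbp1 that does not bind latent TGF-beta. In sWAT it was at 93.3, 94.0, 133 and 146 CPM in Ctrl and at 27.5, 62.1, 42.1 and 64.6 CPM in Csn8AKO mice. Every Csn8AKO mouse was below every Ctrl mouse, and the mean was 2.38-fold lower (log2 -1.25, SE 0.27, adjusted p = 0.0323). The call was lost without Ctrl mouse 2, 3 or 4 or Csn8AKO mouse 1 or 3, with an adjusted p of up to 0.104, and it held in all 11 other settings. In BAT it was at 295, 245, 246, 268 and 169 CPM in Ctrl and 209, 207, 142, 162 and 107 CPM in Csn8AKO mice. Ctrl mouse 5 was below 2 of the Csn8AKO mice, and the mean was 1.48-fold lower (log2 -0.56, SE 0.19, adjusted p = 0.0384). Of the fits without 1 mouse, 3 of 10 kept this call, and it was lost without Ctrl mouse 1, 2, 3 or 4 or Csn8AKO mouse 3, 4 or 5, with an adjusted p of up to 0.0888. The exons of Ltbp2 share 764 bases with D030025P21Rik on the opposite strand. Ltbp3, which does bind latent TGF-beta, was at 384, 545, 379.9 and 360.5 CPM in Ctrl sWAT and 228, 184, 230.1 and 381 CPM in Csn8AKO sWAT, where Csn8AKO mouse 4 was at the Ctrl level and the other 3 below it (log2 -0.71, SE 0.24, adjusted p = 0.13). In BAT its log2 fold change was -0.24 (SE 0.10, adjusted p = 0.0726).

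Of 12 receptors tested in BAT, 1 was called higher and 1 lower (16.7%, against 31.9% of all genes in either direction), with a range of log2 fold changes from -0.45 to 0.45. Acvrl1, or ALK1, a type I receptor of endothelium, was at 23.8, 30.9, 32.0, 34.1 and 43.6 CPM in Ctrl and 36.8, 35.2, 51.7, 50.6 and 50.3 CPM in Csn8AKO BAT. Only Ctrl mouse 5 reached into the Csn8AKO range, and the rise was 1.37-fold (SE 0.16 on the log2 scale, adjusted p = 0.0431). The call was lost without any 1 of Ctrl mice 1 to 4 or Csn8AKO mice 3 to 5, with an adjusted p of up to 0.101. Of 10 endothelial markers, 4 were called higher in BAT. Acvr2b, a type II receptor of activins and myostatin, was at 9.46, 7.18, 8.20, 9.70 and 6.67 CPM in Ctrl and 6.82, 6.23, 4.91, 6.69 and 5.41 CPM in Csn8AKO BAT. The groups overlapped through Ctrl mouse 5 and Csn8AKO mice 1 and 4, and the mean was 1.37-fold lower (log2 -0.45, SE 0.14, adjusted p = 0.0267). This call was lost without Ctrl mouse 1 or 4 or Csn8AKO mouse 3 or 5, with an adjusted p of up to 0.0756.

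The TGF-beta receptors of sWAT were separated between genotypes without being called. Tgfbr2, the type II receptor of TGF-beta, was at 229, 204, 218 and 218 CPM in Ctrl and 338, 282, 411 and 281 CPM in Csn8AKO sWAT. All Csn8AKO mice were above all Ctrl mice (log2 0.60, SE 0.16, adjusted p = 0.0628). Tgfbr1, its type I partner, was at 25.8, 26.9, 25.5 and 22.3 CPM in Ctrl and 38.1, 36.7, 35.9 and 27.2 CPM in Csn8AKO sWAT, also apart, though Csn8AKO mouse 4 was just above the Ctrl range (log2 0.46, SE 0.14, adjusted p = 0.0933). In BAT the groups overlapped, with log2 fold changes of -0.19 (95% interval -0.54 to 0.16) for Tgfbr2 and 0.07 (-0.13 to 0.27) for Tgfbr1. Tgfbr3, or betaglycan, a co-receptor that presents TGF-beta2, was 286 ± 38.5 CPM in Ctrl and 291 ± 69.7 CPM in Csn8AKO sWAT (log2 0.03, 95% interval -0.42 to 0.47). In BAT it was 150.3 ± 17.7 and 159 ± 25.5 CPM (log2 0.08, 95% interval -0.16 to 0.33). Acvr1c, or ALK7, a receptor abundant in adipocytes, had log2 fold changes of -0.70 in sWAT (SE 0.33, adjusted p = 0.274) and -0.22 in BAT (SE 0.13, adjusted p = 0.232). The other receptors, Bmpr1a, Bmpr2, Acvr1, Acvr1b and Acvr2a, ranged from -0.60 to 0.14 in sWAT and from 0.02 to 0.23 in BAT, and none was called. Bmpr1b was under the count filter in sWAT and had 78 and 55 reads in BAT (log2 -0.19, SE 0.47).

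Among the secreted antagonists and follistatin relatives, 3 of 4 tested were called higher in BAT, where 16.0% of all genes were. Fstl1, a secreted glycoprotein related to follistatin and made by mesenchymal cells, was at 50.6, 42.9, 44.3, 41.0 and 40.3 CPM in Ctrl and 87.9, 63.3, 91.1, 89.0 and 105 CPM in Csn8AKO mice. The groups were well apart, a rise of 1.99-fold (log2 0.99, SE 0.12, adjusted p = 2.59e-05). Chrdl1, a BMP antagonist, was at 2.61, 1.37, 1.87, 1.44 and 1.78 CPM in Ctrl and 3.98, 2.64, 4.33, 2.90 and 5.71 CPM in Csn8AKO mice. The lowest Csn8AKO mouse, mouse 2, was just above the highest Ctrl mouse (2.16-fold, log2 1.11, SE 0.24, adjusted p = 0.00251), and the calls of both genes held in all 10 fits without 1 mouse. Fstl3, which neutralizes activins, was at 0.414, 0.423, 0.516, 0.240 and 0.126 CPM in Ctrl and 0.455, 0.749, 0.825, 0.944 and 0.635 CPM in Csn8AKO mice. Csn8AKO mouse 1 was within the Ctrl range and the other 4 above it (log2 1.06, SE 0.36, adjusted p = 0.0343). Its exons share 1157 bases with Prss57 on the opposite strand, and the call was lost without Ctrl mouse 4 or 5 or Csn8AKO mouse 3 or 4, with an adjusted p of up to 0.0992.

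In sWAT the same 3 genes had log2 fold changes of 0.76 (Fstl1, adjusted p = 0.172), 0.14 (Chrdl1, 0.8) and 1.43 (Fstl3, 0.175), and none was called. Fst, or follistatin, the main activin antagonist, was 15.0 ± 4.06 CPM in Ctrl and 23.6 ± 5.98 CPM in Csn8AKO sWAT (log2 0.65, SE 0.24, adjusted p = 0.162), and 19.4 ± 8.80 and 14.0 ± 4.67 CPM in BAT (log2 -0.47, SE 0.35, adjusted p = 0.35). Nog, the BMP antagonist noggin, was under the count filter in both tissues. Nog was called higher in BAT without a filter, without any 1 Ctrl mouse and without Csn8AKO mouse 2. In BAT it had 9 reads in the Ctrl and 49 in the Csn8AKO libraries, at 0 to 0.0901 CPM and 0.158 to 0.267 CPM, so that the groups did not overlap at levels of a few reads. Grem1, the BMP antagonist gremlin, was at 3.71 CPM in Ctrl mouse 1 and 4.66 CPM in Csn8AKO mouse 2 of sWAT and at 0 to 0.101 CPM in the other 6 libraries. These are the libraries rich in lymphocyte markers. In BAT, 4 reads were counted in all.

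Of 8 SMADs, 2 were called higher and 1 lower in BAT, a share of 37.5% near the 31.9% of all genes called there. In sWAT edgeR called 0 of 8, with 1 at an unadjusted p under 0.05, where 5.31% of all genes were called. Smad2, which carries TGF-beta and activin signals, was at 47.2, 43.0, 43.6, 39.6 and 38.7 CPM in Ctrl and 36.8, 35.0, 34.2, 32.3 and 32.4 CPM in Csn8AKO BAT. Every Csn8AKO mouse was below every Ctrl mouse, but the fall was only 1.24-fold (log2 -0.31, SE 0.08, adjusted p = 0.00625). The call held in all 10 fits without 1 mouse and was lost with scaling by library size alone, which raised the median of all genes in BAT to 0.14. The call was also lost with the lymphocyte marker level as a covariate. Smad9, a BMP-regulated SMAD, was at 1.34, 1.80, 2.27, 2.25 and 1.86 CPM in Ctrl and 2.55, 2.84, 2.41, 3.98 and 2.47 CPM in Csn8AKO BAT. The groups were narrowly apart, with Csn8AKO mouse 4 well above the rest (log2 0.58, SE 0.20, adjusted p = 0.0341), and the call was lost without that mouse (adjusted p = 0.116) and without Ctrl mouse 1, 2 or 5.

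Smad7, the inhibitory SMAD that TGF-beta itself induces, was at 8.38, 16.7, 18.8, 17.4 and 13.0 CPM in Ctrl and 16.7, 19.4, 31.3, 26.9 and 35.0 CPM in Csn8AKO BAT. Of the Csn8AKO mice, 4 of 5 were above the Ctrl range (1.74-fold, log2 0.80, SE 0.25, adjusted p = 0.0308). Without Ctrl mouse 5 or Csn8AKO mouse 3, 4 or 5 this call was lost, with an adjusted p of up to 0.0711. In sWAT, Smad7 was at 33.3, 13.9, 11.7 and 12.9 CPM in Ctrl and 12.4, 30.2, 11.4 and 14.3 CPM in Csn8AKO mice. The 2 highest values came from the libraries rich in lymphocyte markers, 1 of each genotype, and the log2 fold change was -0.07 (SE 0.42, adjusted p = 0.945). Smad4, the common partner, was 65.0 ± 3.13 CPM in Ctrl and 64.7 ± 3.85 CPM in Csn8AKO sWAT (log2 -0.01, 95% interval -0.25 to 0.23), and 57.4 ± 3.57 and 57.9 ± 2.86 CPM in BAT (0.01, -0.14 to 0.16). Smad5, a BMP-regulated SMAD, was at 88.2, 85.8, 94.3 and 103 CPM in Ctrl and 75.1, 72.8, 70.2 and 79.9 CPM in Csn8AKO sWAT, apart between genotypes but not called (log2 -0.32, SE 0.11, adjusted p = 0.15). Smad1, Smad3 and Smad6 were not called in either tissue, with log2 fold changes from -0.38 to 0.20.

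**Figure D3:**
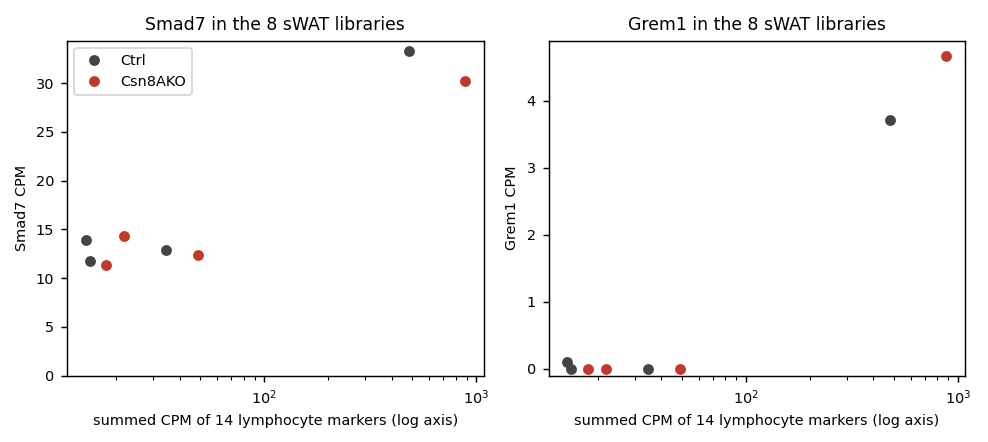
Smad7 (left) and Grem1 (right) in the 8 sWAT libraries, in CPM, against the summed CPM of 14 lymphocyte markers on a log axis. Ctrl mouse 1 and Csn8AKO mouse 2 are at the right, with 33.3 and 30.2 CPM of Smad7 and 3.71 and 4.66 CPM of Grem1, and the other 6 libraries lie low on both axes.

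The ID genes encode inhibitors of basic helix-loop-helix factors and are early targets of BMP signaling. Id2, which is also induced by other signals, was at 37.7, 27.7, 17.6, 25.3 and 15.2 CPM in Ctrl and 19.0, 13.6, 9.31, 13.0 and 13.0 CPM in Csn8AKO BAT. Of the Csn8AKO mice, 4 of 5 were below every Ctrl mouse, and the mean was 1.81-fold lower (log2 -0.86, SE 0.25, adjusted p = 0.0236). The call was lost without Ctrl mouse 2 or Csn8AKO mouse 3, 4 or 5, with an adjusted p of up to 0.0559. In sWAT, Id2 was at 13.3, 6.68, 8.05 and 6.96 CPM in Ctrl and 19.0, 15.6, 12.9 and 8.30 CPM in Csn8AKO mice. Csn8AKO mice 1 and 2 were above the Ctrl range (log2 0.67, SE 0.29, adjusted p = 0.234). Id1, in the same BAT libraries in which Id2 fell, was at 69.0, 80.1, 73.3, 60.0 and 51.7 CPM in Ctrl and 63.5, 61.1, 98.2, 126 and 126 CPM in Csn8AKO mice. Csn8AKO mice 3, 4 and 5 were above the Ctrl range and mice 1 and 2 within it (log2 0.51, SE 0.22, adjusted p = 0.107). Id3 was 44.3 ± 6.16 and 51.7 ± 8.77 CPM in BAT (log2 0.22, SE 0.12, adjusted p = 0.191), and Id1 and Id3 in sWAT had log2 fold changes of -0.10 (95% interval -0.87 to 0.68) and 0.04 (-0.47 to 0.55).

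The change in BAT was set against that in sWAT in 1 model of the 18 libraries with a term for their difference, in which tissue and age cannot be told apart. Of the members, 2 were called, Gdf10 upward and Id2 downward, where 1.61% of 22509 genes were called upward and 0.755% downward. Gdf10 (chr14:33923587-33937983) changed by 1.54 more in BAT than in sWAT on the log2 scale (SE 0.38, adjusted p = 0.0382). Id2 (chr12:25093799-25097140) changed by -1.56 in the same comparison (SE 0.40, adjusted p = 0.0468). Both calls were marginal. With 1 library left out, Gdf10 was called in 6 of 18 fits, with an adjusted p of up to 0.0834 (without sWAT Ctrl mouse 4), and Id2 in 5 of 18, with an adjusted p of up to 0.111 (without sWAT Csn8AKO mouse 1). Gdf10 was lost without any 1 of sWAT Ctrl mice 2 to 4, sWAT Csn8AKO mouse 4, BAT Ctrl mice 1 to 5 or BAT Csn8AKO mice 3 to 5. Id2 was lost without any 1 of sWAT Ctrl mice 2 to 4, sWAT Csn8AKO mice 1 to 3, BAT Ctrl mice 1, 2 and 4 or BAT Csn8AKO mice 2 to 5. Next in order were Acvr1, a type I receptor of BMPs (log2 0.71, adjusted p = 0.0833), and Tgfbr2 (log2 -0.80, adjusted p = 0.0884), which were not called. Thus the members called in BAT and not in sWAT, other than Gdf10 and Id2, were not shown to differ between the tissues.

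**Figure D4:**
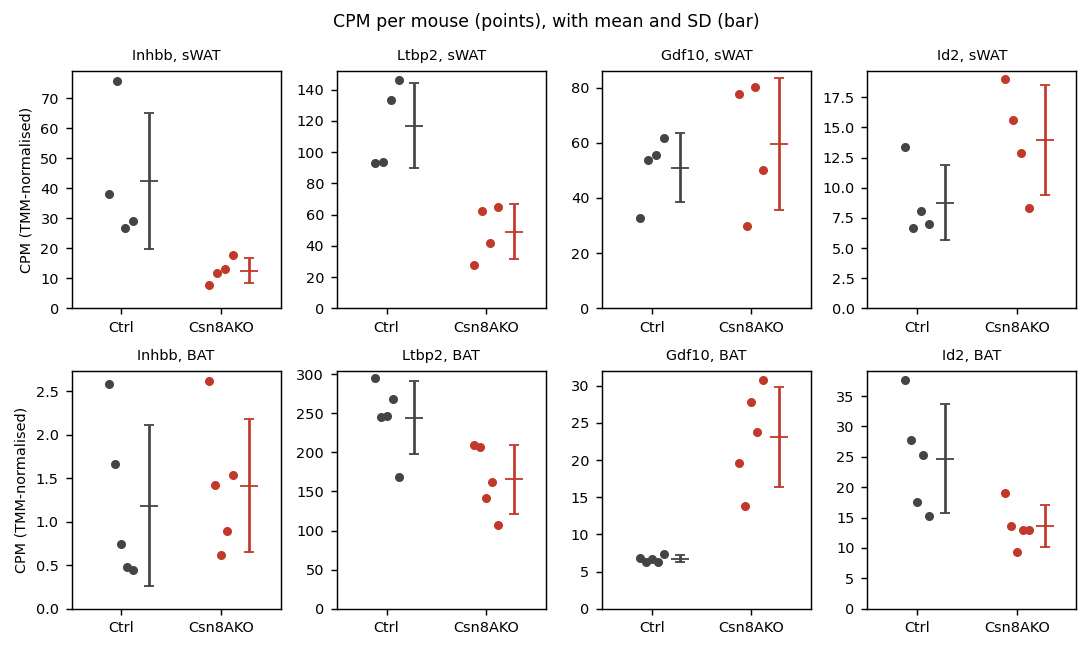
Inhbb, Ltbp2, Gdf10 and Id2 in CPM per mouse (points) with the group mean and SD (bar), in sWAT and BAT, on axes that start at 0. Inhbb and Ltbp2 are lower in all Csn8AKO sWAT libraries than in any Ctrl library, and Gdf10 is higher in all Csn8AKO BAT libraries.

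Levels of different members were compared per kilobase of exon within a tissue. In Ctrl sWAT, Fstl1 stood highest at 68.2 ± 11.7 CPM per kb, followed by Ltbp3 (46.0 ± 9.46), Tgfbr3 (43.8 ± 5.88), Tgfbi (35.9 ± 3.17), Id3 (28.1 ± 9.62) and Tgfbr2 (26.5 ± 1.22). The ranges of mean ± SD of neighbours in this order overlapped, except those of Fstl1 and Ltbp3. In Ctrl BAT, Id1 stood highest at 57.6 ± 9.63 CPM per kb, ahead of Ltbp3 (31.2 ± 3.84), Ltbp2 (29.9 ± 5.72), Tgfbr2 (25.4 ± 4.86), Id3 (24.7 ± 3.44) and Tgfbr3 (23.0 ± 2.7), of which only Id1 lay outside the range of its neighbour. Of the ligands, Inhbb (9.97 CPM per kb), Gdf10 (9.77) and Tgfb1 (8.29) were the most abundant in Ctrl sWAT, and Bmp6 (12.8) and Tgfb1 (5.04) in Ctrl BAT. The ligands Bmp8b, Bmp7, Inhba and Bmp3, called higher in BAT, were at 0.0566 to 0.240 CPM per kb in Ctrl mice.

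Genes known to respond to TGF-beta were also read. Of 28 such genes, 15 were called higher and 2 lower in BAT, with a median log2 fold change of 0.81, where 16.0% of all genes were called higher and 15.8% lower. The 5 called higher with the smallest adjusted p were Fn1, Tgfbi, Postn, Col3a1 and Col5a1. Fn1, encoding fibronectin, was 63.4 ± 2.59 CPM in Ctrl and 223 ± 38.1 CPM in Csn8AKO BAT (log2 1.81, SE 0.11, adjusted p = 1.21e-07). Postn, encoding the matrix protein periostin, rose by 0.98 on the log2 scale (adjusted p = 4.54e-05), and the collagen genes Col3a1 and Col5a1 by 1.25 and 1.18 (5.16e-05 and 5.78e-05). Klf10, a transcription factor that TGF-beta induces early, was lower, at 64.8 ± 12.6 and 44.7 ± 8.11 CPM (log2 -0.53, SE 0.15, adjusted p = 0.0153), as was the member Ltbp2. In sWAT, 4 were called higher and 1, Ltbp2, lower, with a median of 0.44, where 2.30% of all genes were called higher and 3.00% lower. Those called higher were Adam12, a metalloprotease (47.2 ± 3.62 and 110 ± 14.4 CPM, log2 1.22, adjusted p = 0.0018), Postn (log2 1.48, 0.00866), Sphk1, a sphingosine kinase (log2 2.42, 0.0152), and Timp1, an inhibitor of matrix proteases (log2 2.22, 0.0462). Of this list, 3 genes are members (Smad7, Tgfbi and Ltbp2), and its collagens and periostin are also typical of fibroblasts, whose markers rose in the same BAT libraries. Col1a1 and Col3a1 are themselves among those fibroblast markers, and Acta2 and Tagln are among the mural cell markers, so that the lists are not independent.

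Of 15 genes known to respond to BMP, 6 of them members, 14 were tested in BAT and 13 in sWAT. In BAT, 4 were called higher and 2 lower, with a median of 0.36. The 2 lower of 14 are near the 15.8% of all genes called lower there, and 16.0% were called higher. The former were Runx2 (1.67 ± 0.272 and 2.78 ± 0.319 CPM, log2 0.74, adjusted p = 0.00311) and Msx1 (log2 0.76, 0.00442), both transcription factors of skeletal development, and Smad7 and Smad9. The latter were Id2 and Zfp423, a factor of white adipocyte commitment, at 58.9 ± 11.7 and 38.8 ± 4.36 CPM (log2 -0.61, SE 0.13, adjusted p = 0.00239). In sWAT, 0 of 13 were called, with a median of 0.03, where 5.31% of all genes were called.

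**Figure D5:**
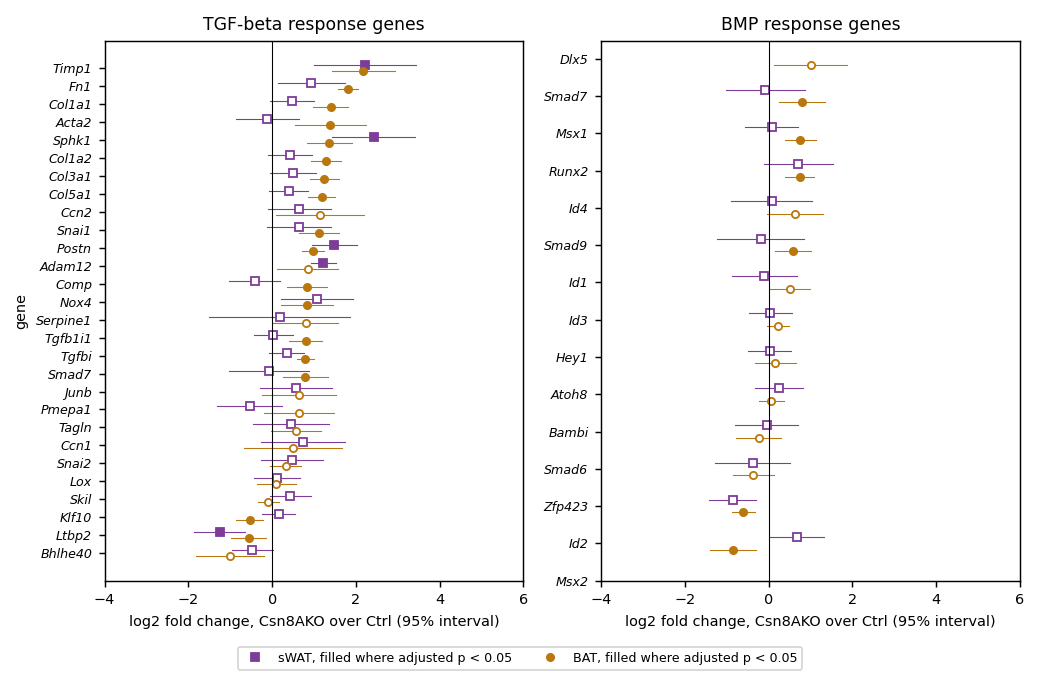
Log2 fold change, Csn8AKO over Ctrl, with unadjusted 95% intervals, of genes that respond to TGF-beta (left) and to BMP (right), in sWAT (squares) and BAT (circles), filled where called. The BAT points of the TGF-beta list lie mostly to the right of 0, with Klf10, Ltbp2 and Bhlhe40 to the left, and the BMP list is spread around 0.

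A further 65 genes of the pathway that are not members were read, of which 49 were tested in BAT and 47 in sWAT. Some of them also stand in lists given above. Skil, Pmepa1 and Tgfb1i1 are in the list for TGF-beta and Bambi is in that for BMP. Dcn and Fbn1 are among the fibroblast and progenitor markers. In BAT, 18 were called higher and 5 lower, with a median log2 fold change of 0.50, where 16.0% of all genes were called higher and 15.8% lower. Those with the smallest adjusted p among the higher were Bmp1, a protease that processes procollagen and frees ligands (29.0 ± 1.12 and 55.2 ± 6.90 CPM, log2 0.93, 4.96e-06), Dcn, the TGF-beta-binding proteoglycan decorin (log2 0.92, 2.9e-05), Itgb8, an integrin subunit that activates latent TGF-beta (log2 1.51, 7.29e-05), Nbl1, a BMP antagonist (log2 1.07, 0.000256), and Gdf15. Gdf15, a stress-induced distant ligand of the family, was 0.108 to 0.339 CPM in Ctrl and 2.21 to 22.4 CPM in Csn8AKO BAT (log2 5.67, SE 0.71, adjusted p = 0.000275). Called lower were Kcp, a modulator of BMP binding (log2 -1.41, 0.000506), the BMP co-receptors Rgma (-0.75, 0.00383) and Rgmb (-0.24, 0.0125), Ldlrad4, an inhibitor of TGF-beta signaling (-0.33, 0.0192), and the ligand Gdf5 (-1.88, 0.0297). In sWAT, 2 were called higher, Peg10 (8.04 ± 0.877 and 29.1 ± 9.88 CPM, log2 1.85, adjusted p = 0.00269) and Emilin1, a matrix protein that restrains TGF-beta processing (log2 0.90, 0.02), and 0 lower, where 2.30% of all genes were called higher and 3.00% lower.

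The calls in BAT also depended on which mice and covariates entered the fit. Without the muscle-rich Csn8AKO mice 1 and 5, 12 members were called higher, all of them among the 17, and 4 lower. In that fit, 2560 of all 23109 genes tested were called higher and 2743 lower. With 1 mouse left out, 9 (without Csn8AKO mouse 4) to 20 (without Csn8AKO mouse 2) members were called higher. Of all genes, 2971 were called higher without Csn8AKO mouse 4 and 4040 without Csn8AKO mouse 2. The summed level of 14 lymphocyte markers in BAT was low but moved with genotype, at 6.86 to 11.4 CPM in Ctrl and 10.8 to 17.9 CPM in Csn8AKO mice. With that level as a covariate, Gdf10, Ltbp1, Tgfbi and Fstl1 were still called higher and 0 members were called lower. Calls fell over all 22345 genes too, from 3585 to 1059 higher and from 3536 to 1284 lower.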

How the data were processed

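The authors extracted total RNA from 18 depots, removed ribosomal RNA, used STAR 2.7.9a to align paired reads to GRCm38 (Ensembl release 101), and featureCounts assigned those with 1 alignment and 1 gene. The deposited counts were not normalized. The deposited CPM is the count scaled to a fixed library total, and the authors' FPKM and TPM also divide by gene length. The deposited CPM was checked against the counts, and none of these measures was used. Counts were tested within each tissue with edgeR 4.0.16 (R 4.3.3), with TMM scaling, a minimum count of 10 and minimum total of 15, and robust quasi-likelihood fits, adjusted over all genes tested and called under 0.05. CPM printed here use TMM scaling within the tissue. The interaction used all 18 libraries. Library totals and ribosomal shares were compared by exact permutation. Alternatives were RLE scaling, library size alone, no filter, over 1 CPM, DESeq2 1.42.0, limma 3.58.1 voom, all groups in one fit, a replicate block, no ribosomal RNA genes, a lymphocyte covariate, and each library left out. Leaving out the lymphocyte- and muscle-rich libraries together was added after seeing the data. The fits were tested on simulated data.

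The members and lists were chosen with earlier results of these data known. Members that were called were described in full, then in each role the members of highest CPM per kb that were not, and from each list up to 5 genes per tissue and direction. Other members named with values were chosen after their values were seen. Errors are the spread between mice, 1 per library. Of the members, 14 share exon bases with genes on the opposite strand and 2 on the same strand, by the exon positions deposited with the counts. No pair of libraries agreed within counting noise.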

Additional observations from a re-analysis of the deposited data

Results flagged for a closer look

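The change in BAT differed from that in sWAT for Gdf10, by 1.54 on the log2 scale (adjusted p = 0.0382), and for Id2, by -1.56 (adjusted p = 0.0468), in edgeR's test of the interaction.

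In single libraries, 10 member values lay far from the rest of their group, with a gap to the nearest value above Dixon's critical share of the range. Of 176 groups tested, chance gives about 8.8 at 1 in 20. In sWAT these were Ltbp3 at 545 CPM in Ctrl mouse 2 (360.5 to 384 CPM in the other Ctrl mice), Acvr1b at 59.1 CPM in Csn8AKO mouse 4 (37.8 to 40.6), Inhba at 0.370 CPM in Csn8AKO mouse 1 (0.972 to 1.09) and Gdf11 at 8.78 CPM in Ctrl mouse 1 (3.14 to 3.89). Smad7 was far from the rest at 33.3 CPM in Ctrl mouse 1 and 30.2 CPM in Csn8AKO mouse 2, the libraries rich in lymphocyte markers. In BAT they were Tgfb2 at 1.30 CPM in Csn8AKO mouse 2 (2.78 to 3.15), Bmp2 at 1.78 CPM in Ctrl mouse 1 (1.10 to 1.25), Gdf6 at 0.270 CPM in Csn8AKO mouse 1 (0 to 0.0687) and Smad9 at 3.98 CPM in Csn8AKO mouse 4 (2.41 to 2.84).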

How the results depend on the processing

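No called member changed direction in any alternative. In BAT, 17 members were called higher, and 9 were with all groups in one fit, 4 with the lymphocyte covariate and 9 to 20 with 1 library left out. Of all genes, 3585 were called higher in BAT at first. With all groups in one fit 2583 were, with the lymphocyte covariate 1059, and with 1 library left out 2948 to 4040. Of the 4 members called lower in BAT, 1 remained with library size alone, 2 without a filter and 0 with the lymphocyte covariate, limma voom called 7, and 1 to 6 were called with 1 library left out. Of all genes, 3536 were called lower in BAT at first. Library size alone called 2087 lower, no filter 3414, the lymphocyte covariate 1284 and limma voom 4507, and 2752 to 4106 were with 1 library left out. In sWAT, where 0 were called higher, the over 1 CPM filter gave 1, DESeq2 2, limma voom 4, all groups in one fit 3, the lymphocyte covariate 4, the fit without both lymphocyte-rich libraries 5 and fits without 1 library 0 to 3. Over all genes, 434 were called higher in sWAT at first. In the same order, these settings called 497, 910, 1077, 1044, 1026, 993 and 147 to 804 genes higher. The 2 called lower became 1 without a filter, 1 without both lymphocyte-rich libraries, 5 with all groups in one fit and 0 to 3 with 1 library left out. Over all genes, 566 were called lower in sWAT at first. In the same order, these settings called 585, 827, 1419 and 179 to 673 genes lower. The interaction called 2, and 0 without a filter, 4 with DESeq2, 4 without the 4 lymphocyte- or muscle-rich libraries and 0 to 3 with 1 library left out. Of all genes, the interaction called 362 upward and 170 downward at first. It called 304 and 118 without a filter, 734 and 354 with DESeq2, and 380 and 191 without those 4 libraries. With 1 library left out it called 246 to 485 genes upward and 103 to 291 downward. The cause of these differences was not tested.

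The replicate number was also entered as a block, although same-numbered libraries did not deviate together (correlations of -0.39 to 0.22 in sWAT and -0.10 to 0.10 in BAT). With the replicate block, 13 members were called higher and 5 lower in BAT, 0 higher and 1 lower in sWAT, and 1 in the interaction. Of all genes, the block left 3353 called higher and 3423 lower in BAT. In sWAT it left 134 higher and 165 lower, against 434 and 566 without it. The interaction then called 208 genes upward and 89 downward. Library size alone moved the median of all genes to 0.14 in BAT and that of the interaction to 0.21. Members under about 1 CPM rest on few reads, so that differences in them were often not detectable at this depth.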
